A study of Mus musculus with 24 samples.

Results

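The regions described here are stretches of the mouse genome in which annotated genes on opposite strands overlap, as listed for kidney in a table of excision repair reads. All 1589 regions of that table were taken, out of 37194 overlap, single-gene and intergenic entries in the kidney tables. Each region stood on 2 lines per library, and the lines were summed unless strands are named. Joined to the full gene table, the regions held 3991 of 25239 gene entries. A region reached from the first base of the first gene to the last base of the last gene for 1589 of 1589 regions, so it is the whole span of a chain of overlapping genes. The bases covered by genes of both strands made up 13.5 Mb of 199.6 Mb, or 6.75% of the length, and in 4 regions the genes met without sharing a base.

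Repair was mapped by XR-seq, which captures and sequences the short oligonucleotides cut out of DNA during nucleotide excision repair. Kidneys came from wild-type C57BL/6J female mice of 6 months, kept in 12 h light and 12 h dark and given cisplatin by intraperitoneal injection at 10 mg/kg, with the tissue taken 2 h later. The 6 groups were zeitgeber times 0, 4, 8, 12, 16 and 20 h (ZT0 to ZT20, counted from lights on), with 2 libraries each and 12 in all. All groups received the drug, so no untreated kidney served as a background, and each value is repair in whole tissue that mixes cell types. The labels do not say that the 2 libraries of a time came from different mice, and p-values therefore cover the variation among libraries alone, part of which could be technical. The design text names an immunoprecipitation against cisplatin damage, whereas the extraction protocol names antibodies against other lesions.

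Nucleotide excision repair removes bulky lesions such as the links that cisplatin forms between neighbouring guanines. In its transcription-coupled branch, RNA polymerase stalled at a lesion on the strand it reads calls in the repair factors, so the template strand of an active gene is repaired faster than the other strand. Where 2 genes on opposite strands overlap, each DNA strand is the template of one gene and the coding strand of the other. Such pairs are called convergent when their 3′ ends overlap, divergent when their 5′ ends overlap and nested when one lies within the other. Many clock genes, whose products form the feedback loops that time transcription over the day, have partners on the opposite strand.

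The overlap regions held 1256649 to 1303714 reads per library of replicate 1 and 2850132 to 2961351 of replicate 2, because the authors had drawn the libraries down to 8700000 and 20000000 reads. The median region had 909.5 reads per library, 30 regions averaged under 20 and 6 had none in any library. Density is given in RPKM, computed here as reads per kb of region per 1000000 reads of the overlap, template, coding-strand and intergenic tables together. Each density is thus relative to the reads of its library, and a change in total repair over the day cannot appear in it. Counts of the replicates differed most at ZT0, where the chi-square per degree of freedom over regions was 14.3 against 2.80 to 4.48 at the other times. Markers of the labelled tissue were present: the template of Slc34a1, the phosphate carrier of the proximal tubule, had 2.23 ± 0.269 RPKM of the whole library in the full gene table (SD, n = 12) and that of Umod 0.478 ± 0.0949, against 0.181 ± 0.0623 for the liver gene Alb and 0.0408 ± 0.00967 for the leukocyte gene Ptprc. The liver gene Apob had 0.826 ± 0.0305, near the proximal tubule gene Lrp2 at 0.842 ± 0.0677.

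The shortest regions were overlapping microRNA genes. All 12 regions under 1 kb were pairs of hairpins that overlap on opposite strands, and 24 of 24 hairpins matched RefSeq (GRCm38.p6). They are printed for the 3 pairs with reads in all 12 libraries and for Mir216b and Mir216c, which had none, with runs of guanines in capitals because neighbouring guanines are the main cisplatin target. Guanines of the plus-strand hairpin lie on the coding strand of that gene, and those of the minus-strand hairpin lie on its template.
Mir497 (chr11:70234692-70234816, plus strand): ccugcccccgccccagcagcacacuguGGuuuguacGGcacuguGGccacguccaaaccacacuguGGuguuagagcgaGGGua
Mir497b (same region, minus strand): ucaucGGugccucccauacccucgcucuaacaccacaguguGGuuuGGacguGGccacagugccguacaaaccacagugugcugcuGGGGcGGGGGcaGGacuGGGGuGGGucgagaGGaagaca
Mir219c (chr17:34024983-34025092, plus strand): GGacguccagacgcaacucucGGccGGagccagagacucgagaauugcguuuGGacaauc
Mir219a-1 (same region, minus strand): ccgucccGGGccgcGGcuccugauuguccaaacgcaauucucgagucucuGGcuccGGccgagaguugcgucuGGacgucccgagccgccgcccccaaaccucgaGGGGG
Mir24-2 (chr8:84208815-84208921, plus strand): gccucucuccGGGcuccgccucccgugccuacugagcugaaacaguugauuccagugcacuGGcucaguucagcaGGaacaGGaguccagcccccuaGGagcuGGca
Mir3074-2 (same region, minus strand): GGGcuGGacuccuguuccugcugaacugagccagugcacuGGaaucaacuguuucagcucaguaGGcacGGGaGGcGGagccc
Mir216b (chr11:28746191-28746276, plus strand): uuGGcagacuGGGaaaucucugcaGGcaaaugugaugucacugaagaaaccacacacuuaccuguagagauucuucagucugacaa
Mir216c (same region, minus strand): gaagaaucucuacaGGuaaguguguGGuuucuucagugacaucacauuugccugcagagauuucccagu

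The pair of Mir24-2 and Mir3074-2 had most of its reads on one strand: 106 of its 120 reads lay on the template of Mir24-2 and 14 on that of Mir3074-2. Within the span of Mir24-2, the template strand held 13 GG steps and the other strand 7. The Mir497 and Mir497b pair had 81 and 74 reads on its templates over 125 bases, with 11 and 6 GG steps within the 84 bases of Mir497. The Mir219c and Mir219a-1 pair had 93 and 81 reads over 110 bases, with 3 and 4 steps within the 60 bases of Mir219c. Reads and steps thus cover unlike stretches in both. These 3 pairs held 4 to 24 reads per library at mean densities of 8.12 ± 2.41, 9.52 ± 2.29 and 6.71 ± 1.91 (SD, n = 12), for Mir497, Mir219c and Mir24-2 in that order. Mir216b and Mir216c had 0 reads, which allows a density of up to 0.214 with 3 reads over all libraries, so a level like that of intergenic DNA was not detectable there. The other pairs ranged from 0 reads for Mir299a with Mir299b, Mir337 with Mir3544 and Mir290a with Mir290b to 21 for Mir129b with Mir129-2 over the 12 libraries. Limits from counts cover counting error only, since PCR copies are not independent molecules.

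From 1 kb upward, repair per kb fell as regions became longer. Regions of 1 to 10 kb held 3.76 ± 0.205 RPKM (SD over 12 libraries), those of 10 to 30 kb 2.54 ± 0.107, those of 30 to 100 kb 1.60 ± 0.0192, those of 100 to 300 kb 0.861 ± 0.0346 and those over 300 kb 0.288 ± 0.0128. No library of one class reached the range of the next, which in regions of 1 to 10 kb ran from 3.52 to 4.07 and in those of 10 to 30 kb from 2.42 to 2.72. Across the 1577 regions of at least 1 kb, length and mean density had a Spearman correlation of -0.56, which is a description across regions that share their libraries, and length is also the divisor of the density. It was -0.55 for convergent, -0.44 for divergent and -0.53 for nested pairs, and -0.58 for regions of more than 2 genes. Regions under 1 kb, the microRNA pairs above, held 2.90 ± 0.397 RPKM, below the class of 1 to 10 kb. In summed reads this was 3.76 times the density of regions over 10 kb (log2 ratio 1.91 ± 0.0593 SE), higher in 12 of 12 libraries. The exact sign-flip permutation test over libraries gave p = 0.000488, 2-sided, which is the smallest p that 12 libraries can give, and the Benjamini-Hochberg value over 10 density comparisons was also 0.000488. The short class rests on 0.00206% of the overlap reads, and the direction turned with the median region, which held 1.15 RPKM under 1 kb and 1.27 over 10 kb (log2 ratio -0.14, an alternative chosen after seeing the data).

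**Figure D1:**
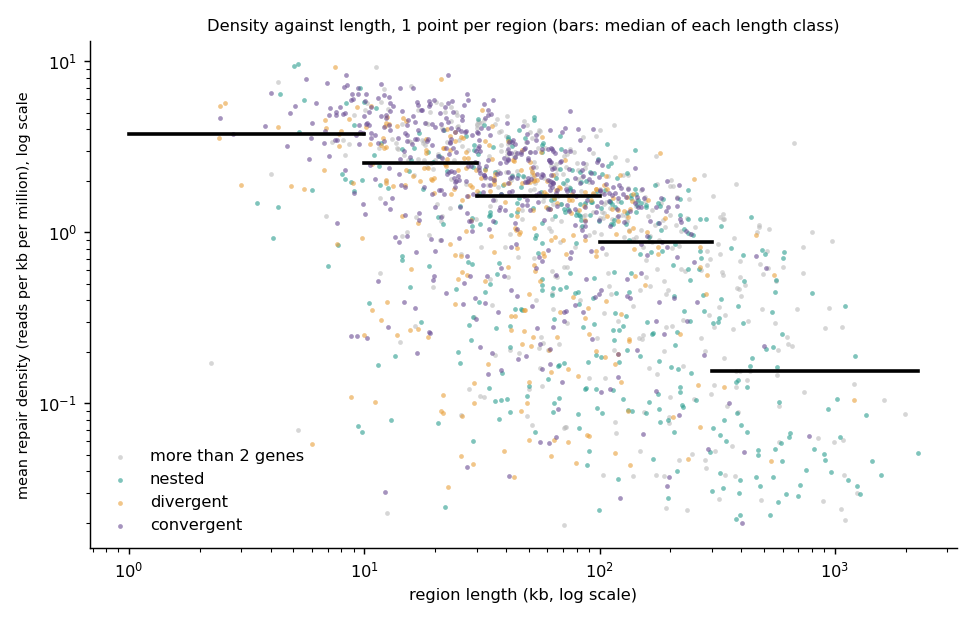
Mean repair density of each region (vertical axis, RPKM, log scale) against its length (horizontal axis, kb, log scale), 1 point per region of at least 1 kb with reads, coloured by the arrangement of its genes. Black bars mark the median region of each length class, which falls from 3.75 in regions of 1 to 10 kb to 0.154 in those over 300 kb, with wide scatter within each class.

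The 8 densest regions of at least 1 kb spanned 5.02 to 22.8 kb. Mir324 with Acadvl, the enzyme that starts the breakdown of very long fatty acids, spans 5.25 kb (chr11:70010183-70015428) and held 8.59 to 11.3 RPKM with a median of 9.42 over the 12 libraries, a mean of 9.60 ± 0.769 (SD). It was followed by Elmo3 with Mir328 at 9.45 ± 0.874, 1810019D21Rik with the splicing factor gene Esrp2 at 9.32 ± 0.865, and Syvn1, a ubiquitin ligase of the endoplasmic reticulum, with Mrpl49 and Mir6988 at 9.27 ± 0.868. Further down among the 8 stood Dctn2 with an unnamed gene, Spsb2 with the glycolytic gene Tpi1, and Gm15417 with Zbtb7b, between 7.85 and 8.38. Neighbours among the first 4 and among these last 3 differed by less than the SD of either.

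The longest regions were among the thinly repaired ones. Dmd, the dystrophin gene, with Tsga8 inside it spans 2256 kb and held 0.0511 ± 0.00247 RPKM. Macrod2 with Flrt3 spans 1995 kb and held 0.0865 ± 0.00782, Fhit with its antisense partners 1612 kb and 0.104 ± 0.0161, and the cell adhesion gene Ctnna3 with Lrrtm3 1574 kb and 0.0379 ± 0.00214. The intergenic class stood at 0.1004 ± 0.00465, so the regions of Dmd, Macrod2 and Ctnna3 lay below it. Of regions with reads, Csn3, a milk protein gene, with BC037156 and 1700066N21Rik was lowest at 0.0194 ± 0.00581, and Cdh8 with Gm15679 held 0.0201 ± 0.00252. The 2 regions of at least 1 kb with no reads hold Il11ra2 and Ccl27b copies on contigs of chromosome 4 without a fixed place, and near-identical copies elsewhere in the genome make their counts uncertain.

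The arrangement of the genes went with large differences in density. Convergent pairs held 1.51 ± 0.0157 RPKM in 492 regions, divergent pairs 1.01 ± 0.00607 in 279 and nested pairs 0.458 ± 0.0195 in 393, while the 425 regions of more than 2 genes held 0.735 ± 0.00950 (SD, n = 12). Pooled over the regions of a group, libraries did not overlap: convergent pairs ran from 1.48 to 1.53, divergent from 0.999 to 1.02 and nested from 0.433 to 0.497. Single regions did overlap. The lower quartile of convergent regions, 1.13, lay below the upper quartiles of divergent regions, 2.28, and of nested regions, 1.56. The SE and p-values that follow cover variation among libraries and not the spread among gene pairs. Convergent pairs were 1.49-fold denser than divergent ones (log2 ratio 0.58 ± 0.00408 SE, exact sign-flip permutation test over 12 libraries, adjusted p = 0.000488). Nested pairs were 2.87-fold less dense than convergent and divergent pairs together (log2 ratio -1.52 ± 0.0184 SE, 12 of 12 libraries, same test and p). Nested regions were also longer, with a median of 90.3 kb against 37.9 kb for convergent and 44.5 kb for divergent pairs. Within regions of 1 to 10 kb the nested difference shrank to -0.30 on the log2 scale. Within regions over 10 kb it was -1.51, and the convergent to divergent ratio was 0.57 in both length classes. The class over 10 kb mixes lengths, and the gaps varied within it. From 10 to 30 kb nested pairs held 1.53, divergent pairs 2.004 and convergent pairs more than either. From 30 to 100 kb nested pairs held 1.23 and divergent pairs 1.21, against 1.93 for convergent pairs. From 100 to 300 kb nested pairs held 0.7705, divergent 0.859 and convergent 0.993. Over 300 kb the values were 0.173 in 75 nested, 0.307 in 5 divergent and 0.256 in 7 convergent regions.

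As a class, the overlap regions held more repair per kb than the template of single genes and less than both their strands together. They held 0.776 ± 0.0108 RPKM, counted over both strands, against 0.848 ± 0.00656 for both strands of single genes, 0.747 ± 0.0165 for their template alone, 0.101 ± 0.0101 for their coding strand and 0.1004 ± 0.00465 for intergenic DNA. The overlap class was 1.09-fold below both strands of single genes in 12 of 12 libraries (log2 ratio -0.13 ± 0.00325 SE, exact sign-flip permutation test, adjusted p = 0.000488). It was 1.04-fold above the template, 7.70-fold above the coding strand and 7.73-fold above intergenic DNA, each in 12 of 12 libraries with the same p. The ratio to single genes turned round with the way of averaging: by the median region in place of summed reads, overlap regions were higher, at 1.04 on the log2 scale.

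Summed over the pairs of each arrangement, the bases under both genes held more repair per kb than the bases under 1 gene. Reads and lengths were pooled over regions, so long regions weigh most and single pairs were not compared. Density also fell with region length, and the part of length in these folds was not tested. For pairs sharing at least 1 kb, the shared stretch of 90 divergent regions held 1.77 ± 0.114 RPKM against 0.780 ± 0.0214 for the rest of those regions, 2.27-fold more (log2 ratio 1.18 ± 0.0356 SE). In 311 nested regions the inner gene's span held 0.849 ± 0.0270 against 0.418 ± 0.0192 for the rest of the host, 2.03-fold more. In 197 convergent regions the values were 1.31 ± 0.0420 and 1.15 ± 0.0135, 1.13-fold apart. Each was higher in 12 of 12 libraries, with an exact sign-flip permutation adjusted p of 0.000488. With stretches from 100 bases, the folds were 2.77 for divergent, 2.00 for nested and 1.04 for convergent pairs, the last ranging from 0.988 to 1.08 among libraries.

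**Figure D2:**
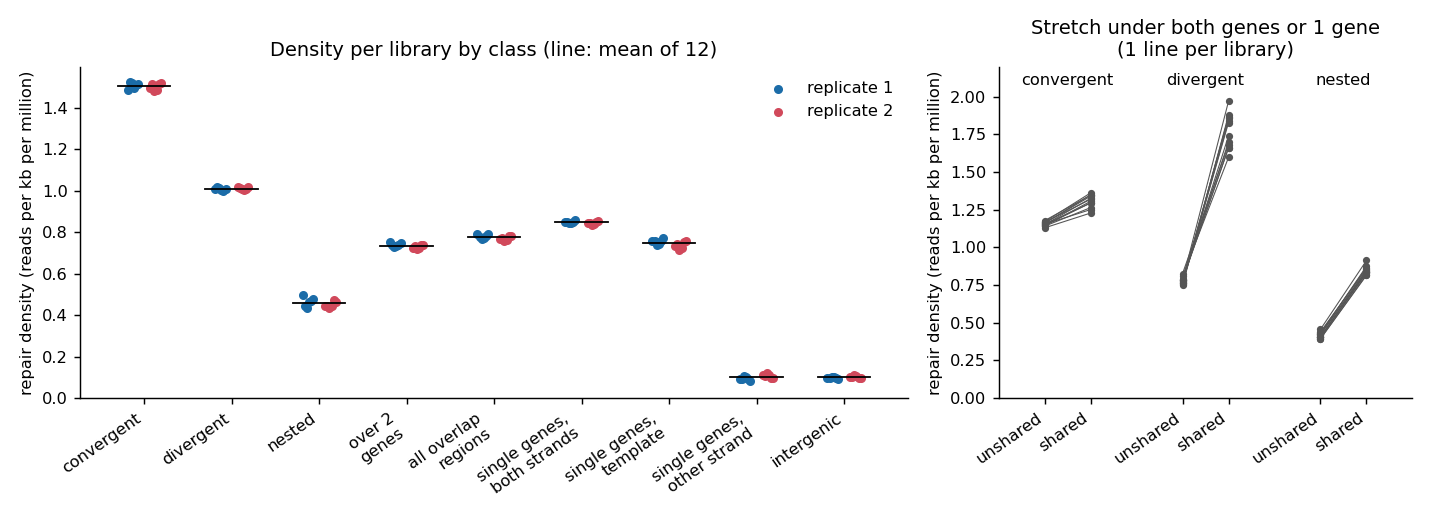
Repair density per library (RPKM, reads per kb per 1000000). Left, 1 point per library and a line at the mean of 12. Shown are overlap regions by the arrangement of their genes, single-gene strands and intergenic DNA. Right, 1 line per library joining the stretch under 1 gene to that under both genes, pooled over pairs that share at least 1 kb. Convergent pairs stand highest at 1.51 and nested pairs lowest of the overlap groups at 0.458, and divergent pairs have the steepest rise, from 0.780 to 1.77.

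Most regions were repaired unequally on their strands, each of which is the template of the genes on the other side. The 2 lines of a region carry no strand label. They were told apart by the full gene table, where the first line followed the template reads of the plus-strand genes with r of 0.990 to 0.992 over 1164 pairs in each library, against 0.035 to 0.154 for the opposite assignment. Of 1559 regions tested, 1445 (92.7%) differed between strands by edgeR's quasi-likelihood test at a Benjamini-Hochberg adjusted p under 0.05. Each line counts 1 strand over the whole span, and 6.75% of the summed length lay under genes of both strands. Elsewhere 1 line is the template of a gene and the other its coding strand. Unequal lines are therefore likely from template repair alone, and the count is not a result about the shared bases. More repair lay on the template of plus-strand genes in 752 (48.2% of those tested) and on that of minus-strand genes in 693 (44.5% of those tested). The median difference was 2.79-fold, 575 regions differed by less than 2-fold and 306 by 8-fold or more. Nested regions were the most lopsided group, with a median of 4.56-fold against 2.45-fold for convergent and 2.80-fold for divergent pairs. In 378 nested regions tested, the host's template had more reads in 303 and the inner gene's in 44, and the median ratio of host to inner template was 3.99-fold over the whole host span.

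The 6 largest strand ratios in each direction ran from 23.4-fold to 44.0-fold. Strands are named here by the gene whose template they are, but were counted over the whole region. Outside the shared bases, each ratio thus compares a gene's template with its own coding strand. Mir6340, for example, covers 0.119 kb of the 42.3 kb region of Rab22a. Rtfdc1, a replication fork factor, holds Gcnt7 on the other strand (chr2:172440578-172469899). Over the region, the template strand of Rtfdc1 held 3.02 to 3.43 RPKM with a median of 3.20 over the 12 libraries. The other strand, the template of Gcnt7, held 0.0290 to 0.0958 with a median of 0.0739, and Gcnt7 covers 8.28 of its 29.3 kb. The strands did not overlap in any library and stood 44.0-fold apart (log2 ratio 5.46 ± 0.115 SE). On the same side followed Golgb1, a Golgi protein gene, over 4930565N06Rik at 35.5-fold, Hps4 over Gm6583 at 32.2-fold, Rab22a over Mir6340 at 30.3-fold, Rbm19 over Gm10390 at 26.3-fold and Frs3 over Frs3os at 25.4-fold. In the other direction the template of Fam160a2 held 2.24 to 2.59 with a median of 2.31, and that of Gm5901 0.0337 to 0.108 with a median of 0.0587. No library of one reached the other, and they stood 35.5-fold apart. The demethylase gene Alkbh3 over Alkbh3os1 followed at 33.1-fold, Ppp2r5b over Gpha2 at 29.2-fold, Diablo over B3gnt4 at 26.0-fold, Plbd2 over Sds at 24.8-fold and Cep120 over Gm19466 at 23.4-fold. Of these 12 regions 6 were nested, 4 convergent and 1 divergent, and Diablo's held 3 genes.

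A 24 h rhythm in the summed repair of a region was mostly small where it was called. Of 1573 regions tested, 318 (20.2%) had one by edgeR's quasi-likelihood cosinor at adjusted p under 0.05. Among single-gene templates, fitted in their own table, 2255 of 14998 (15%) had one. Regions were summed over both strands and a template is 1 strand, so these shares are not of like measures. Amplitude is the log2 distance from the mean to the peak, and its median over called regions was 0.16, a 1.24-fold difference between peak and trough, against 0.09 over all tested. Peaks fell into 2 windows: 93 regions (5.91% of those tested) peaked between 4 and 12 h and 216 (13.7%) between 16 and 24 h, with 9 elsewhere. By arrangement, 15.9% of convergent, 20.9% of divergent and 23.2% of nested pairs tested were called, and 22.1% of regions with more than 2 genes. Peaks fitted within each replicate number lay within 3 h of each other in 300 of the 318. The 318 were called on both replicate numbers together, which favours like peaks, so this count is not independent evidence. Blocking on the replicate number raised the count to 489, including all 318. Asking for any difference among the 6 times gave 21, and the count depended on single libraries, falling to 203 without ZT4 replicate 2, to 147 and 90 without ZT8 replicate 1 and replicate 2, to 162 and 208 without ZT16 replicate 1 and replicate 2, and to 168 without ZT20 replicate 1.

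**Figure D3:**
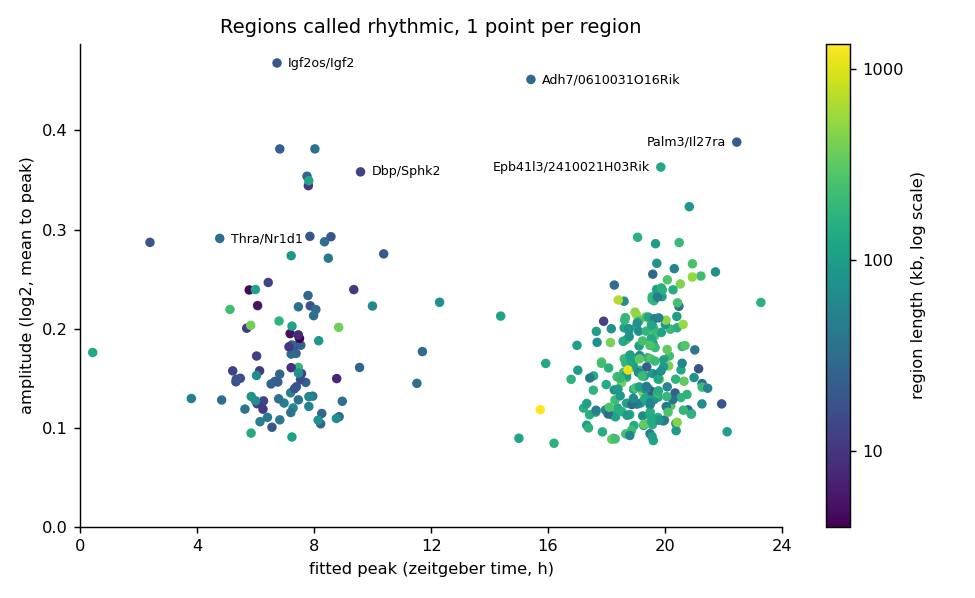
Amplitude (vertical axis, log2 distance from mean to peak) against fitted peak (horizontal axis, zeitgeber time in h) of the 318 regions called rhythmic, 1 point per region, coloured by region length on a log scale. The 93 regions that peak between 4 and 12 h are mostly short (median 28.6 kb) and the 216 that peak between 16 and 24 h mostly long (median 133 kb).

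In their share of the repair reads, short and long regions moved in opposite directions as classes. Regions of 1 to 10 kb held 4.07 and 3.98 RPKM in the libraries of ZT8, their highest mean of the 6 times, and 3.56 and 3.65 at ZT20. Regions of 100 to 300 kb did the reverse, with 0.817 and 0.807 at ZT8 and 0.902 and 0.888 at ZT20. The ZT0 libraries differed from each other, at 3.53 and 3.79 in the short class and 0.905 and 0.849 in the long one, and the first of them was like the ZT16 and ZT20 libraries. With each library's trend over region length taken out, an alternative chosen after seeing the data, 226 regions were called, 175 of them among the 318. The median length was then 85.4 kb for regions peaking between 4 and 12 h and 78.7 kb for those between 16 and 24 h.

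**Figure D4:**
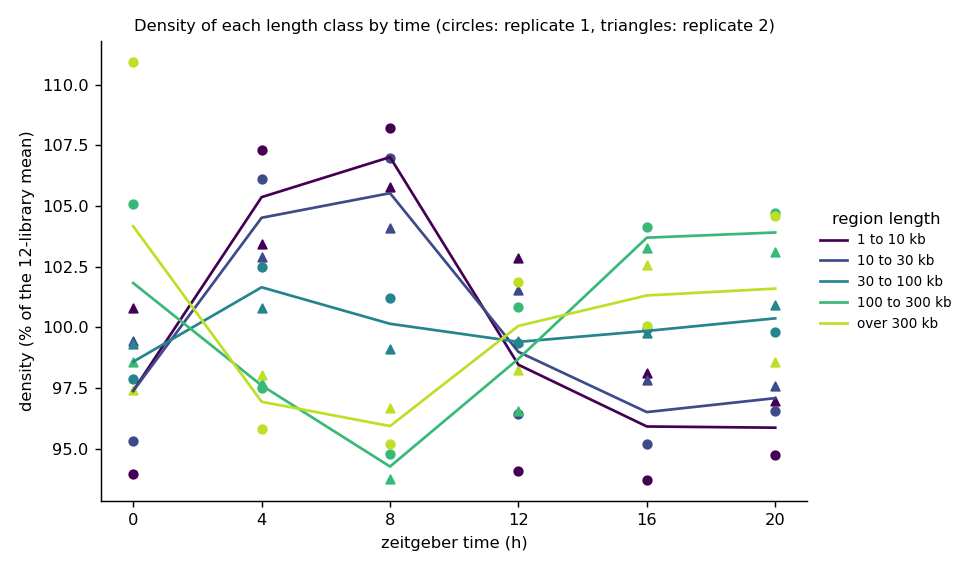
Density of each length class of overlap regions in percent of its mean over 12 libraries (vertical axis) by zeitgeber time (horizontal axis, h); circles are replicate 1, triangles replicate 2 and lines the mean of both. Classes up to 30 kb are highest at ZT8 and the 100 to 300 kb class is lowest there, and the spread of the ZT0 libraries is the widest in the class over 300 kb.

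All 5 regions that hold a gene of the list of clock repressors and clock outputs (the repressors Nr1d1, Ciart, Cry2 and Bhlhe40 and the output activator Dbp) were called, against 20.2% of all regions tested. Each peaked between 4 and 12 h, and their median amplitude was 0.28 against 0.16 over called regions and 0.09 over all tested. The lowest of the 5 was Cry2, at 0.18. The list was chosen with results of these libraries known, so its count is not independent evidence. In 4 of the 5 the balance between the strands had a rhythm too. Such a rhythm was called in 120 of 1559 regions (7.7%), and in 111 of the 120 the more repaired template gained at 16 to 24 h. The template to coding-strand ratio of single genes moved the same way, from 6.93 and 5.95 at ZT8 to 9.21 and 7.89 at ZT20, and its part in these calls was not tested.

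Dbp, an activator of D-box genes, meets Sphk2, a sphingosine kinase, tail to tail on chromosome 7 (45705247 to 45718002), where they share 741 bases. The Dbp template held 0.856 and 0.912 RPKM over the region at ZT0, 1.53 and 1.53 at ZT4, 3.01 and 3.42 at ZT8, 2.46 and 2.80 at ZT12, 1.52 and 1.48 at ZT16 and 0.969 and 1.12 at ZT20. Both ZT8 libraries were above all others, and the ZT0 libraries were the lowest. The Sphk2 template held 4.16 and 3.61 at ZT0, 5.17 and 4.25 at ZT4, 5.08 and 4.86 at ZT8, 4.22 and 4.74 at ZT12, 4.38 and 4.20 at ZT16 and 4.29 and 3.79 at ZT20, so its times overlapped. The ratio of the Dbp to the Sphk2 template peaked at 10.1 h with an amplitude of 0.77 ± 0.0759 (SE), a 2.92-fold swing (edgeR's quasi-likelihood test, adjusted p = 0.000108). The summed density of the region ran from 5.01 and 4.52 at ZT0 to 8.10 and 8.28 at ZT8, and its rhythm peaked at 9.58 h at an amplitude of 0.36 ± 0.0409 (adjusted p = 0.000262). Over its own span in the full table, Dbp had an amplitude of 0.93 ± 0.0703 (adjusted p = 8.13e-06) and Sphk2 one of 0.10 ± 0.0467 (adjusted p = 0.323), where 14.9% of all genes tested were called.

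Nr1d1, which encodes the repressor REV-ERB alpha, overlaps the thyroid hormone receptor gene Thra at their 3′ ends on chromosome 11 (98741785 to 98775377, 1075 shared bases). The Nr1d1 template held 1.94 and 1.58 at ZT0, 2.74 and 2.41 at ZT4, 2.80 and 2.66 at ZT8, 1.64 and 2.15 at ZT12, 1.49 and 1.18 at ZT16 and 0.966 and 0.897 at ZT20. Values at ZT4 and ZT8 lay above those of every other time, and the ZT20 libraries were the lowest. The Thra template was highest at ZT4 and ZT0 in replicate 1, with 3.86 and 3.82, and at ZT4 and ZT20 in replicate 2, with 2.96 and 2.93. The ratio of Thra to Nr1d1 template peaked at 19.8 h with an amplitude of 0.74 ± 0.0879 (adjusted p = 0.000611). Summed, the region peaked at 4.77 h with an amplitude of 0.29 ± 0.0550 (adjusted p = 0.00691), and over its own span Nr1d1 peaked at 6.68 h with 0.71 ± 0.0852.

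Ciart, a repressor of the clock activators, lies with BC028528 opposite C920021L13Rik on chromosome 3 (95871522 to 95892005). The template of Ciart and BC028528 rose from 0.355 and 0.436 at ZT0 and 0.524 and 0.628 at ZT4 to 1.16 and 1.32 at ZT8 and 1.27 and 1.28 at ZT12, and was back at 0.794 and 0.821 at ZT16 and 0.325 and 0.513 at ZT20. The ZT8 and ZT12 libraries were above all others. On the other strand the C920021L13Rik template stayed between 1.90 and 2.29. The ratio of C920021L13Rik to Ciart template peaked at 23.0 h with an amplitude of 0.89 ± 0.0851 (adjusted p = 0.000108), and over its own span Ciart had the largest amplitude of the genes in these clock regions, 1.15 ± 0.0758, with its peak at 10.8 h.

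Cry2, a cryptochrome that represses the clock activators, holds D930015M05Rik within its span on chromosome 2 (92403647 to 92434069). The Cry2 template was lowest at ZT0, with 3.19 and 3.32, and reached 4.75 and 4.54 at ZT8 and 4.44 and 4.96 at ZT12. The D930015M05Rik template held 0.463 and 0.577 at ZT0, 0.501 and 0.607 at ZT4 and 0.548 and 0.526 at ZT8, against 0.323 and 0.360 at ZT12, 0.263 and 0.290 at ZT16 and 0.179 and 0.344 at ZT20. The first 3 times lay above the last 3 with no overlap. The ratio of D930015M05Rik to Cry2 template peaked at 3.45 h with an amplitude of 0.73 ± 0.114 (adjusted p = 0.0114). In the full table the genes peaked at different hours, D930015M05Rik at 3.99 h with an amplitude of 0.63 ± 0.0788 and Cry2 at 12.8 h with 0.21 ± 0.0414.

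**Figure D5:**
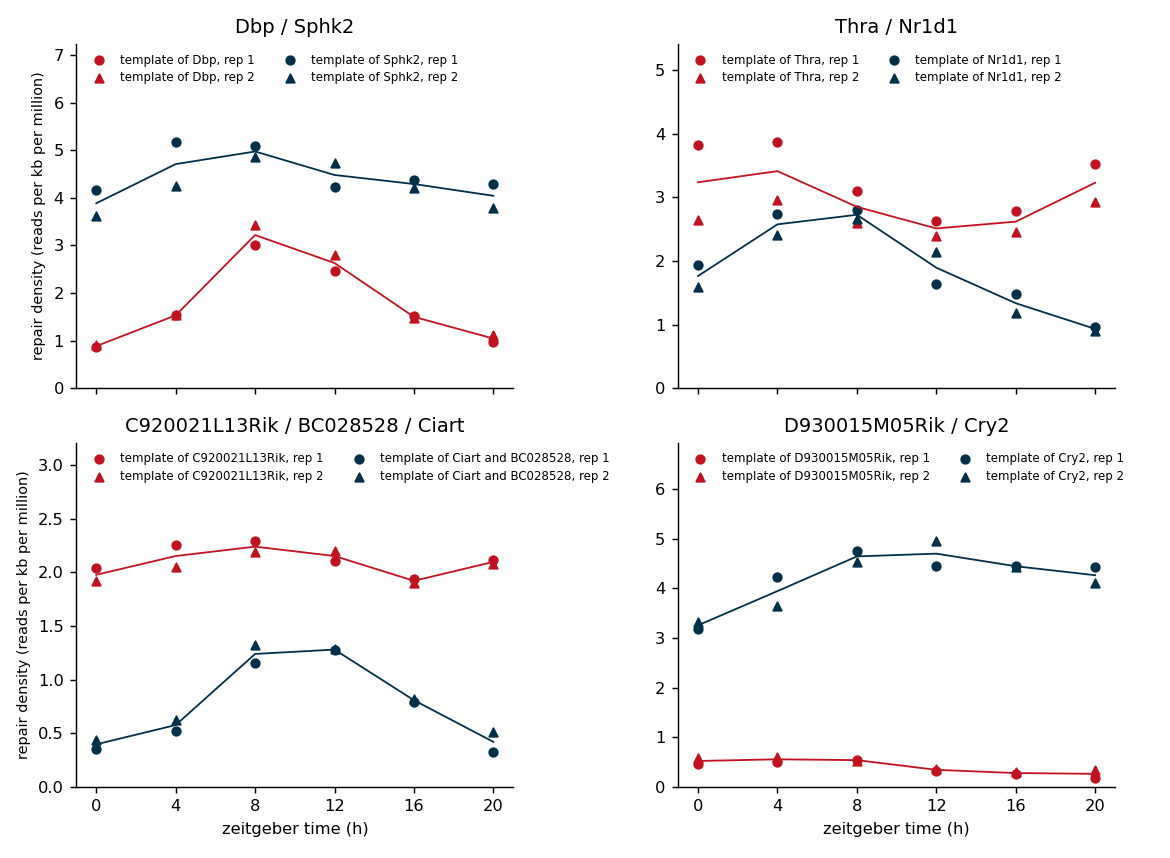
Repair density (vertical axis, RPKM over the region) on each strand of 4 regions with a clock repressor or output gene by zeitgeber time (horizontal axis, h). Red is the template of the plus-strand gene and dark blue that of the minus-strand gene, circles are replicate 1, triangles replicate 2 and lines the mean of both. Dbp rises from 0.856 to 3.42 beside Sphk2, and Nr1d1, Ciart and Cry2 are high at ZT8 in both libraries.

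The sequence before the start of Ciart is shown because its strand had the largest rhythm of these clock pairs. The 250 bases upstream (RefSeq, GRCm38.p6, minus strand) hold 3 copies of the E-box CACGTG, in capitals, the site bound by the clock activators. Both strands were searched, and 6.02% of 32851 RefSeq promoters hold at least 1 copy in the same window.
Ciart (chr3:95882229-95882478): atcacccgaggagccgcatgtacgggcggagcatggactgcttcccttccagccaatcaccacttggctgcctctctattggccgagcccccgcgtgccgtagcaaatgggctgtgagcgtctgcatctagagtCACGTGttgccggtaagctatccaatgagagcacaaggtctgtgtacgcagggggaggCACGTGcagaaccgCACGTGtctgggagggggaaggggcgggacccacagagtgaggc
The windows of Dbp, Sphk2, Nr1d1, Cry2, D930015M05Rik and BC028528 hold no copy of it, which says only that these letters are not in this window. None of these 7 genes' windows holds the D-box TTATGTAA, found in 0.819% of promoters. The core motif AGGTCA of the REV-ERB and ROR receptors, found in 14.0% of promoters, is present once before D930015M05Rik. Thra and C920021L13Rik had no entry.

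Bhlhe40, a repressor that competes for E-boxes, lies on chromosome 6 (108577036 to 108666925) against the 0610040F04Rik transcripts. Its region held 0.843 and 0.957 at ZT0, 1.04 and 1.03 at ZT4, 1.09 and 1.15 at ZT8, 0.966 and 1.05 at ZT12, 0.948 and 0.921 at ZT16 and 0.807 and 0.809 at ZT20. The highest library at ZT20 was below the lowest at ZT8, the amplitude was 0.19 ± 0.0291 and the peak 8.15 h (edgeR adjusted p = 0.00229). Both strands had their highest mean at ZT8 and their lowest at ZT20, and a rhythm of their ratio was not called (adjusted p = 0.735). Over its own span Bhlhe40 gave 0.15 ± 0.0416 (adjusted p = 0.0561), and the 2 entries of 0610040F04Rik gave 0.19 (adjusted p = 0.00923) and 0.45 (adjusted p = 0.00328). Of the clock activators, the region of Clock, with Tmem165, Nmu and Pdcl2, was called at an amplitude of 0.12 ± 0.0237 with a peak at 20.2 h (adjusted p = 0.00768). Clock itself gave 0.21 over its own span (adjusted p = 0.00639). The region's call was lost without ZT8 replicate 2 (adjusted p = 0.0878), and after removal of the length trend its adjusted p was 0.251. The region of Rora missed the threshold at 0.12 ± 0.0343 (adjusted p = 0.0579). It passed after removal of the length trend (adjusted p = 0.0395) and under the replicate block (adjusted p = 0.0170).

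Other large summed rhythms lay outside the clock pairs. Igf2, a fetal growth factor gene, with Igf2os and Mir483 held 0.359 and 0.475 at ZT0, 0.529 and 0.648 at ZT4, 0.727 and 0.674 at ZT8, 0.316 and 0.533 at ZT12, 0.471 and 0.348 at ZT16 and 0.328 and 0.345 at ZT20. The ZT8 libraries were the highest and those of ZT4 came next, although ZT12 replicate 2 at 0.533 overlapped the lower of these. The amplitude was 0.47 ± 0.0898 with a peak at 6.73 h (edgeR adjusted p = 0.00734). Adh7, an alcohol dehydrogenase gene, lies within 0610031O16Rik and their region had the opposite course, with 0.466 and 0.375 at ZT12 and 0.449 and 0.393 at ZT16 against 0.202 to 0.282 from ZT0 to ZT8. Its amplitude was 0.45 ± 0.0753 and its peak 15.4 h (adjusted p = 0.00365). In the full table the outer transcript 0610031O16Rik gave 0.52 ± 0.0854 (adjusted p = 0.00290) and Adh7 on its own strand 0.31 ± 0.153 (adjusted p = 0.347), and the difference between them was not tested.

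Palm3, a membrane-associated protein gene, converges with the cytokine receptor gene Il27ra on chromosome 8, and the region fell from 1.64 and 1.45 at ZT0 to 0.905 and 0.975 at ZT8 and rose to 1.45 and 1.45 at ZT20. No library from ZT8 to ZT16 reached those of ZT0 or ZT20. The amplitude was 0.39 ± 0.0430 with a peak at 22.5 h (edgeR adjusted p = 0.000255), and over its own span Palm3 gave 0.46 ± 0.0672 (adjusted p = 0.00150) and Il27ra 0.25 ± 0.114 (adjusted p = 0.279). Txnip, an inhibitor of thioredoxin and of glucose uptake, lies within Gm15441, and their region rose to 3.47 and 3.90 at ZT8 from 2.23 and 2.06 at ZT20. ZT12 replicate 2 at 3.51 lay between the ZT8 libraries and all others were lower, and the amplitude was 0.34 ± 0.0545 with its peak at 7.80 h (adjusted p = 0.00256). Over their own spans Gm15441 gave 0.53 ± 0.0786 (adjusted p = 0.00147) and Txnip 0.22 ± 0.0553 (adjusted p = 0.0295). Ddc, which makes dopamine and serotonin from their precursors, holds 1700042O10Rik, and their region was lowest at ZT8, with 0.793 and 0.755, and highest at ZT20, with 1.29 and 1.31. Its amplitude was 0.32 ± 0.0558 with a peak at 20.8 h (adjusted p = 0.00429).

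Epb41l3, a cytoskeleton adaptor gene, with 2410021H03Rik held 0.357 and 0.312 at ZT8, its lowest mean, although ZT4 replicate 2 at 0.352 overlapped, and 0.471 and 0.534 at ZT16. Its ZT0 libraries differed most, at 0.650 and 0.418. The amplitude was 0.36 ± 0.0682 with a peak at 19.9 h (edgeR adjusted p = 0.00673). The microRNA host region of Mir143 and Mir145a, hairpins of smooth muscle, with Bvht peaked at 7.75 h with 0.35 ± 0.0646 (adjusted p = 0.00587). The calls of Igf2, Adh7, Palm3, Txnip, Ddc, Epb41l3, Bvht, Dbp and Nr1d1, 9 of the 15 largest rhythms, held without each of the 12 libraries in turn. Wdr95 with Gm15997 (0.35 ± 0.0727, peak 7.81 h) and Apobec3 with D730005E14Rik (0.29 ± 0.0584, peak 7.85 h) were lost without ZT8 replicate 2 (adjusted p = 0.0578 and 0.0503). Atcay with Nmrk2 (0.38 ± 0.104), Xlr5a with DXBay18 (0.38 ± 0.107), Gli1 with Arhgap9 (0.29 ± 0.0805) and Spata17 (0.29 ± 0.0702) were lost without 7, 9, 10 and 5 single libraries, among them each ZT8 and each ZT16 library, at adjusted p up to 0.178, 0.131, 0.159 and 0.121. Removal of the length trend also ended the first 3 calls, at adjusted p = 0.0554, 0.106 and 0.0863.

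Beyond the clock pairs, the largest strand-ratio rhythms were Chrne, an acetylcholine receptor subunit gene, with 4930544D05Rik, and Palm3 with Il27ra. The Chrne pair had an amplitude of 0.99 ± 0.237 with the 4930544D05Rik template gaining at 18.9 h (edgeR adjusted p = 0.0416), and the Palm3 pair one of 0.71 ± 0.145 with Palm3 gaining at 20.5 h (adjusted p = 0.0290). Their calls were lost without 9 and 7 of the 12 libraries, with adjusted p up to 0.211 and 0.159. The ratio calls of Ciart, Dbp, Nr1d1 and Cry2 held without each library, the last at adjusted p up to 0.0484. The count of 120 fell to 29 without ZT4 replicate 2, to 11 and 6 without ZT8 replicate 1 and replicate 2, to 29 without ZT12 replicate 2, to 16 and 11 without ZT16 replicate 1 and replicate 2, and to 10 and 30 without ZT20 replicate 1 and replicate 2. It rose to 391 without ZT0 replicate 2, to 227 without ZT4 replicate 1 and to 294 with the replicate block.

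None of the 8 regions that hold an excision repair gene was called rhythmic by edgeR's quasi-likelihood test, and their median amplitude was 0.06 against 0.09 over all regions. At an unadjusted p under 0.05 the count was 2, and DESeq2 called 1. The share called over all regions was 20.2%, so 0 of 8 is not a result about repair genes. Ercc1, the nuclease partner of XPF, with Cd3eap held 5.11 ± 0.277 RPKM, and Ercc2, the XPD helicase of TFIIH, with Klc3 and Mir343 held 5.03 ± 0.303. Lig3 with Rffl held 3.08 ± 0.0844, Acp2 with Ddb2, the damage sensor of global repair, 1.89 ± 0.154, Ccdc125 with the TFIIH kinase Cdk7 1.88 ± 0.0960, and the 17-gene region with the elongation factor Elof1 1.21 ± 0.0567. The DNA ligase gene Lig1 with 6330408A02Rik was lowest at 0.642 ± 0.0411. Their amplitudes ran from 0.02 ± 0.0311 for Cdk7 to 0.11 ± 0.0380 for Lig1, with adjusted p from 0.0980 to 0.811. Ercc1 passed after removal of the length trend (adjusted p = 0.0234), and the Elof1 region passed with no scaling beyond the fixed total (adjusted p = 0.0383) and in DESeq2's likelihood ratio test (adjusted p = 0.0114).

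Among lipid genes, 3 of 3 regions were called, against 20.2% of all regions, and 2 of them are described. They are Lss, a cholesterol synthesis enzyme, with 4930483K19Rik at 0.24 ± 0.0403 and a peak at 18.3 h (edgeR adjusted p = 0.00352), and Srebf1, the regulator of fatty acid synthesis, with Rai1 at 0.13 ± 0.0256 and 19.5 h (adjusted p = 0.00768). The Lss region held 2.69 and 2.56 at ZT16 and 2.48 and 2.84 at ZT20, above all libraries of ZT0 to ZT8 and of ZT12, whose highest was 2.43. Removal of the length trend ended the call of Srebf1 (adjusted p = 0.0845), and it was also lost without ZT8 replicate 2 (adjusted p = 0.0529). Over their own spans in the full table Rai1 gave 0.21 ± 0.0344 (adjusted p = 0.00292) and Srebf1 0.06 ± 0.0331 (adjusted p = 0.380), and their difference was not tested.

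One region was called in each of the p53 target, proximal tubule and endothelial lists, out of 3, 4 and 4 regions tested, where 20.2% of all regions were called. They were Zmat3 with 4930429B21Rik (0.12 ± 0.0308, peak 18.9 h, edgeR adjusted p = 0.0291), Hnf4a, a regulator of tubule genes, with Hnf4aos and R3hdml (0.13 ± 0.0345, 5.85 h, 0.0361) and the endothelial gene Eng with Fpgs (0.11 ± 0.0279, 6.15 h, 0.0363). They were lost without 9, 4 and 5 single libraries, among them ZT8 replicate 1, ZT8 replicate 2 and ZT16 replicate 1, at adjusted p up to 0.134, 0.0869 and 0.0858, and that of Eng also after removal of the length trend (adjusted p = 0.0689). None of 3 heat shock, 1 distal tubule, 2 mesenchymal and 1 podocyte regions was called by edgeR or DESeq2, and 1 of them, a mesenchymal one, had an unadjusted p under 0.05. No region held a gene of the immediate early, platinum and thiol, immune or hepatocyte lists. In whole tissue, fewer cells of a type and less repair per cell cannot be told apart.

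As a class, the overlap regions varied little over the day in their share of the repair reads. They held 0.793 and 0.766 RPKM at ZT0, 0.777 and 0.772 at ZT4, 0.766 and 0.757 at ZT8, 0.775 and 0.765 at ZT12, 0.781 and 0.785 at ZT16 and 0.790 and 0.781 at ZT20. Both ZT8 libraries were below those of ZT16 and ZT20, while the ZT0 libraries held 0.793, the highest of all, and 0.766. The fitted amplitude was 0.0109 ± 0.00326 RPKM (SE), taken on the densities and not on the log2 scale. Its peak was at 20.2 h (permutation test over 12 libraries with 100000 resamples, p = 0.0310). Replicate 1 alone gave p = 0.0333 and replicate 2 alone p = 0.283 in exact permutation tests with n = 6 each. The pooled p rose above 0.05 without ZT8 replicate 1 (0.0559) or replicate 2 (0.0948), ZT12 replicate 2 (0.0509), ZT16 replicate 1 (0.0517) or replicate 2 (0.0514), and ZT20 replicate 1 (0.0780).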

How the data were processed

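Per the submitters' processing notes, reads were placed on mm10; the sources used here name no aligner or counter. The authors deposited read counts with RPKM values for each entry, strand and time; their RPKM served only to recover the totals they had drawn the libraries down to, and the RPKM printed were computed anew from the counts. No columns of other series were used. Counts of the 2 lines of a region were summed and tested with edgeR 4.0.16 (TMM, filterByExpr, quasi-likelihood cosinor of 24 h, Benjamini-Hochberg over all regions) in R 4.3.3, with DESeq2 1.42.0 and limma 3.58.1 as alternatives. Strand tests used 2 columns per library with the library as a block; since the lines carry no strand label, these tests were chosen after the lines had been set against the full gene tables. Shared stretches were counted as gene reads, scaled to the drawn total, minus region reads. Density ratios were tested by exact sign-flip permutation (SciPy 1.17.1). On simulated counts the rhythm test recovered 85% of regions of amplitude 0.2 and 100% at 0.4, and the ratio test 89% at 0.4. The simulated rhythms were placed only in regions averaging at least 20 reads. Counts were drawn independently with 1 common dispersion, without the shared deviations of same-numbered libraries or the wider spread at ZT0. Recovery in libraries like the real ones was therefore not measured.

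Members and gene lists were chosen with earlier results of these data known. Regions named were the 15 largest called rhythms with peaks within 6 h in both replicate numbers and a mean of at least 20 reads, the 8 densest, 4 least dense and 4 longest, the 6 largest strand ratios each way, the 6 largest ratio rhythms, all with a clock or excision repair gene, and up to 4 called regions of each other list; smaller groups of genes within them were picked for description after their values were seen. Same-numbered libraries deviated together in 15 of 15 pairs of times (correlation of deviations from the time means 0.193 to 0.566), so the numbers pair the libraries by the data and the replicate block is given where it moves a result. Coordinates are 1-based. Values of 2 regions that the rule selects are not reported here.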

Additional observations from a re-analysis of the deposited data

How the results depend on the processing

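The density comparisons kept their direction and their side of the threshold under the alternatives run, with 2 exceptions that turned with the median over regions: the overlap class against both strands of single genes went from -0.13 to 1.04 on the log2 scale, and regions under 1 kb against those over 10 kb from 1.91 to -0.14, an alternative chosen after seeing the data. The cause was not tested. Finer length classes within the regions over 10 kb were described above and were not among these alternatives. In them the gap of nested pairs varied, and over 300 kb the mean of convergent pairs lay below that of divergent pairs. Comparisons of gene arrangement in regions under 1 kb could not be computed, nor a test of the last median ratio per library, since the median region under 1 kb had no reads in 6 of 12 libraries. The shift of the class density kept a permutation p under 0.05 with the fixed total, the median region and the most-read 1% left out. With the replicate block the permutation p was 0.0167. Leaving out 1 library gave amplitudes of 0.00926 to 0.0131 RPKM.

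Rhythmic overlap regions numbered 287 to 418 under other scalings, filters and DESeq2, 21 for any difference among the times, 489 with the replicate block and 90 to 427 with 1 library left out. Single-gene templates numbered 204 for any difference, 3819 with the replicate block and 846 to 3262 with 1 library left out, against 2255. Strand-ratio rhythms numbered 294 with the replicate block and 6 to 391 with 1 library left out, against 120, while unequal strands stayed at 1434 to 1449. Among named regions the block ended no call; it added the rhythm of Macrod2 with Flrt3 (adjusted p = 0.00617) and of Plbd2 with Sds (0.0275), beside Rora, and the strand-ratio rhythm of 5 regions. Depth limits the microRNA pairs and the 30 regions under 20 reads.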
